A study of Mus musculus and Homo sapiens with 8 samples.

Results

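The comparison set H1299 cells transfected with p53 K24R against H1299 cells transfected with vector. H1299 is a human lung cancer line that makes no p53 of its own, and in K24R the lysine at residue 24 of p53 is replaced by arginine. It rests on 2 of the 8 bead arrays of the series, and on 12243 of the 34694 genes of the human array table. These are the genes with at least 1 probe that had a detection p-value under 0.01 on the K24R or the vector array. A gene was represented by the passing probe with the highest mean signal on those arrays.

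The series holds 3 human arrays, 1 each for H1299 with p53 K24R, p53 wild type and vector control, and mouse thymus arrays that were not used here. All 3 human samples were the same line grown in high-glucose DMEM, and total RNA was prepared with Trizol for biotin labelling. The plasmids, the time after transfection and the share of cells that took up DNA are not given in the sources used here. There is 1 array a group and so no test, and every difference below compares arrays, not conditions. The only error available is that between the beads of a probe on 1 array, which leaves out the spread between cultures. In RNA of a whole culture, fewer responding cells and less RNA per responding cell cannot be told apart.

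p53 is a transcription factor that is stabilised after DNA damage and other stress. It binds response elements near its target genes and raises transcription of inhibitors of the cell cycle, DNA repair factors, mediators of apoptosis and its own negative regulators, among them MDM2. Many of its activities are set by modification of its lysines with ubiquitin, acetyl or methyl groups, and a change of lysine to arginine keeps the positive charge but removes the site. TRAF6, named in the title of the series, is a ubiquitin ligase best known for relaying receptor signals to NF-kB. The comparison therefore bears on which genes differ from vector when p53 without lysine 24 is introduced, and the p53 wild-type array gives the same genes with the lysine in place.

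Detection p-values under 0.01 were found for 14233 probes on the K24R array, 12716 on the p53 wild-type array and 13674 on the vector array, of 47323 probes each. A probe was read from a median of 22 beads on the K24R array and 21 on each of the others, and the median bead standard error was 3.94%, 3.97% and 3.99% of the signal. The lowest detected signal was 131.3 on the K24R array, 139.1 on the p53 wild-type array and 134 on the vector array, in linear intensity. Probes just inside the threshold, with a detection value of 0.00909, had a median signal of 134.5 on the K24R and vector arrays, and those just outside, with a detection value of 0.01039, had 131.1, so the threshold separates nearly equal signals. TRAF6 read 133.0 on the K24R array and 135.0 on the vector array, close to the detection limit on both. On the p53 wild-type array it read 121.7 and was not detected.

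The arrays carried markers of a vimentin-positive line with simple keratins. Of the epithelial markers 3 of 6 were detected, and KRT19, EPCAM and CDH1 were not. Of the mesenchymal markers 2 of 4 were detected, and FN1 and ZEB1 were not. VIM, the mesenchymal intermediate filament, read 15690.4 on the K24R array and 17834.6 on the vector array, and KRT8, a keratin of simple epithelia, read 1429.1 and 1537.3. CDH2, the cadherin of mesenchymal cells, read 991.7 and 980.3. None of the 6 lung lineage markers, 6 fibroblast markers or 4 endothelial markers listed was detected on either array. CD68, a lysosomal protein, was the 1 detected of 6 immune markers, at 4816.0 and 5150.6, and ENO2, an enolase, was the 1 detected of 5 neuroendocrine markers, at 717.8 and 705.6. No detected marker differed 2-fold.

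Most genes differed little between K24R and vector, and the larger differences were mostly upward. Across the 12243 genes the median log2 difference, K24R minus vector, was -0.01. Of the 10377 genes detected on both arrays, the central 95% lay between -0.63 and 0.66 on the log2 scale, where the median bead error was 0.12. A log2 difference of 1 or more, a 2-fold difference, was reached upward by 177 genes (1.45%) and downward by 84 (0.686%). A gene not detected on 1 array has only a bound there, and 117 of the 177 higher genes were not detected on the vector array while 67 of the 84 lower genes were not detected on the K24R array. With an undetected array raised to its own lowest detected value where the gene lay below it, 104 genes (0.849%) were higher and 20 (0.163%) lower. All folds here are on the background-corrected, normalized scale, and for dim genes they exceed the ratio of the printed signals, which still contain background. A fold given as "at least" uses this raised value and is a bound on that scale alone, since another background correction gives another value. Among genes detected on both arrays, 60 (0.578%) were higher and 17 (0.164%) lower. At 4-fold the counts were 39 higher and 2 lower, and 27 and 0 with the bound.

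**Figure D1:**
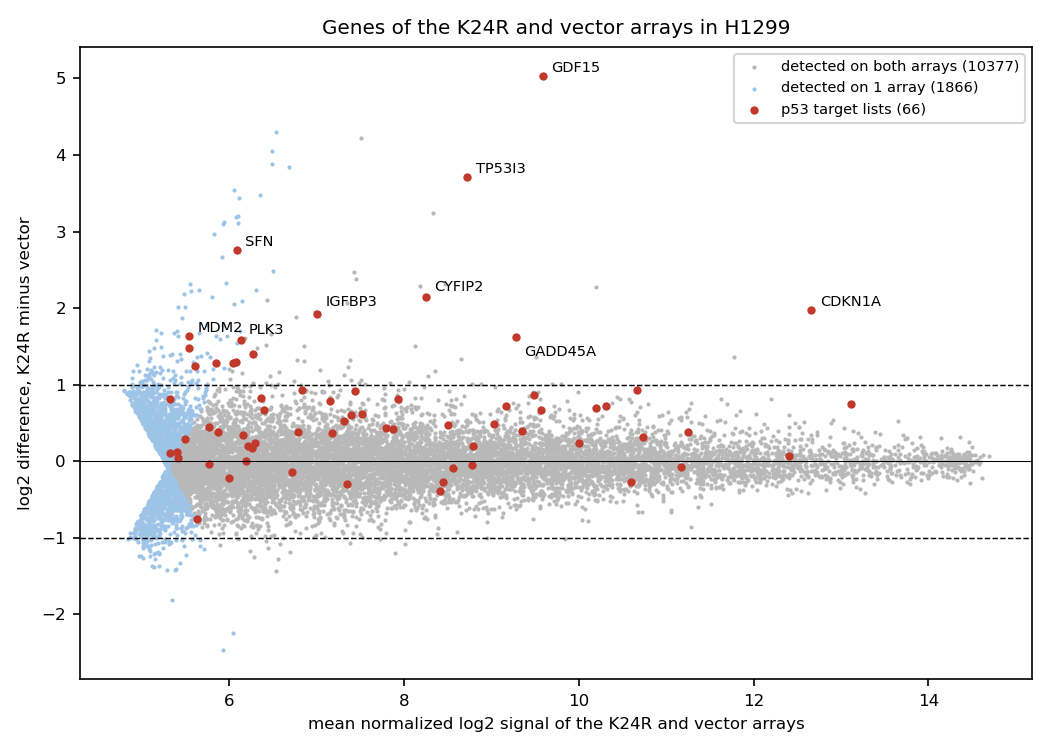
Each point is a gene, placed by its mean normalized log2 signal on the K24R and vector arrays (horizontal axis) and its log2 difference, K24R minus vector (vertical axis). Dashed lines mark 2-fold. Blue points were detected on 1 of these arrays, grey points on both, and red points are the 66 listed p53 targets that were measured. GDF15, TP53I3 and CDKN1A stand above the bulk at medium and high signal, while most points past a dashed line lie at low signal.

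The differences past 2-fold were concentrated among dim genes. With the genes cut into 4 equal bins by mean signal, 84 of the dimmest bin were 2-fold higher and 65 lower, against 9 higher and 1 lower in the brightest. The SD of the log2 differences was 0.53 in the dimmest bin and 0.26 in the brightest. A given fold therefore stands further from the bulk for a bright gene such as CDKN1A than for a dim one such as MDM2.

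Canonical p53 targets as a list lay above vector. The list held 97 genes, of which 96 were in the table and 66 were measured, 59 of them on both arrays and 7 on the K24R array alone. Those 7 could enter the comparison only by being brighter with K24R, so the counts are given in 3 ways. Of the 66, 15 were 2-fold higher and 0 lower, beside the 1.45% and 0.686% of all genes given above. With undetected vector values at their bound, 13 were higher, beside 0.849% of all genes. Among the 59 detected on both arrays 10 were higher, beside 0.578% of all genes so detected. The median log2 difference of the 66 was 0.48, or 0.46 with the bound, against -0.01 over all genes, and 54 members lay above 0 and 12 below. Over the same 66 genes the median was 0.60 for p53 wild type minus vector, a comparison that shares the vector array. The other 30 members in the table were not detected on either array, among them FAS, the death receptor, at 114.0 with K24R and 106.6 with vector.

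**Figure D2:**
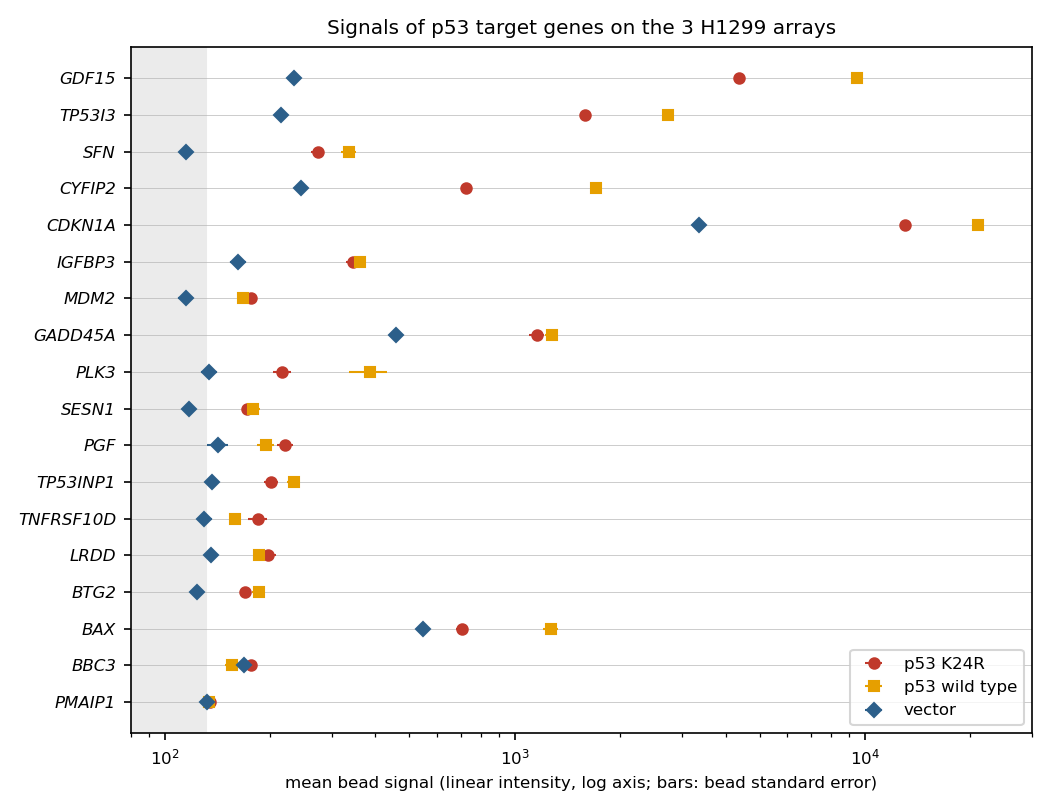
Mean bead signal (linear intensity on a log axis) of 18 p53 target genes on the p53 K24R, p53 wild-type and vector arrays, with bars for the bead standard error. The grey band ends at the lowest detected signal of the K24R array, 131.3. GDF15, TP53I3 and CDKN1A have K24R signals between those of vector and p53 wild type, while MDM2, SESN1 and IGFBP3 have nearly the same signal on both p53 arrays and BBC3 and PMAIP1 barely differ among the 3 arrays.

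Regulators of p53 itself split. MDM2, the ubiquitin ligase that targets p53 for degradation, read 176.8 ± 5.5 (bead SE) on the K24R array, 167.6 on the p53 wild-type array and 115.1 ± 5.72 on the vector array, where it was not detected. That is a log2 difference of 1.64 and, on the corrected scale, a fold of at least 2.03 for K24R over vector. Under other corrections and scalings, including a mean over its probes in the authors' matrix, the MDM2 log2 difference lay between 0.29 and 2.56. MDM2 has 4 probes in the table, of which this 1 was detected. TP53INP1, a stress-induced p53 cofactor, read 201.7, 233.6 and 137.0 on those arrays, 2.46-fold higher with K24R than with vector (log2 difference 1.30 ± 0.19). A second TP53INP1 probe, not detected with vector, differed by 0.83. TRIAP1, an apoptosis inhibitor, was higher by 0.67 on the log2 scale. PPM1D, the phosphatase that shuts down p53 signalling, CCNG1 and CCNG2, cyclin G genes, and RFWD2, the ubiquitin ligase also called COP1, lay below 0, at -0.14, -0.27, -0.21 and -0.38. The 7 measured members of this group had a median of -0.14.

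The group for growth arrest and DNA repair had the highest median of the 4 p53 groups, 0.70 over 19 measured members, 6 of them 2-fold higher and 0 lower, beside 1.45% and 0.686% of all genes. With the bound 4 were higher, beside 0.849% of all genes. Of the 16 members detected on both arrays 3 were higher, beside 0.578% of all genes so detected. CDKN1A, which encodes the cyclin-dependent kinase inhibitor p21, read 12992.1 ± 213 on the K24R array, 21026.7 on the p53 wild-type array and 3369.5 ± 93.0 on the vector array. It was 3.92-fold higher with K24R than with vector (log2 difference 1.97 ± 0.05), and 6.28-fold higher with p53 wild type. A second CDKN1A probe read 528.1, 638 and 122.3 on the same arrays, was not detected with vector, and gave at least 10.9-fold on the corrected scale for K24R over vector, so the 2 probes differ in size and not in direction. SFN, the stratifin gene whose protein holds cells before mitosis, read 273.5 and 335.5 on the K24R and p53 wild-type arrays and was not detected with vector at 114.8, at least 4.39-fold higher with K24R on the corrected scale. Its log2 difference was 2.76, and 1.22 to 3.86 under the alternatives. GADD45A, a growth arrest gene induced by DNA damage, read 1155.7 ± 55.7 with K24R, 1274.7 with p53 wild type and 457.7 ± 17.5 with vector, 3.07-fold higher with K24R than with vector. The GADD45A signals on the 2 p53 arrays lie near each other, whereas those of the brighter CDKN1A probe do not. For the second CDKN1A probe the log2 difference from vector was 3.83 with K24R and 4.17 with p53 wild type, a narrower gap.

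Dimmer members of the same group were also above vector. PLK3, a polo-like kinase of the stress response, read 217.1 ± 12.5 with K24R, 385.0 with p53 wild type and 134.2 ± 6.74 with vector, which just passed detection, a log2 difference of 1.58 ± 0.26. SESN1, a sestrin that restrains growth signalling, and BTG2, an antiproliferative gene, were not detected with vector and were at least 1.92-fold and 1.86-fold higher with K24R. Both bounds lie under 2-fold. Below that threshold, and named after their values were seen, were RPS27L at 0.93, ZMAT3 at 0.75, NINJ1 at 0.70 and the damage recognition gene DDB2 at 0.68 on the log2 scale. XPC, another damage recognition gene, and PCNA, the sliding clamp of DNA replication, were at 0.19 and 0.24.

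Among the apoptosis targets, TP53I3 was far higher, and the BCL2 family members BID, BAX, BBC3 and PMAIP1 were under 2-fold. TP53I3, which encodes a quinone oxidoreductase linked to oxidative stress, read 1585.8 ± 34.3 on the K24R array, 2747 on the p53 wild-type array and 215.6 ± 7.19 on the vector array. It was 13.1-fold higher with K24R than with vector (log2 difference 3.72 ± 0.09) and 22.1-fold higher with p53 wild type. TNFRSF10D, a decoy receptor for the death ligand TRAIL, was not detected with vector and was at least 2.22-fold higher with K24R on the corrected scale, at 184.7 against 129.9 in signal. Its log2 difference was 1.29, and as low as 0.50 under the alternatives. LRDD, the death domain gene now called PIDD1, read 197.9, 185.8 and 136.0 on the K24R, p53 wild-type and vector arrays, 2.43-fold higher with K24R than with vector.

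BAX, which permeabilises the outer mitochondrial membrane, read 707.4 ± 28.4 with K24R, 1266.8 with p53 wild type and 545.3 ± 17.0 with vector. Its log2 difference from vector was 0.49 ± 0.09 with K24R and 1.41 with p53 wild type. BID, another BCL2 family target, was named after its values were seen. It read 282.3 with K24R, 224.6 with p53 wild type and 207.2 with vector. The BID log2 difference from vector was 0.78 ± 0.12 with K24R and 0.36 with p53 wild type. BBC3, also called PUMA, and PMAIP1, also called NOXA, encode activators of BAX and stayed close to vector. BBC3 read 176.4, 156.1 and 168.7 on the K24R, p53 wild-type and vector arrays, and PMAIP1 read 134.7, 133.9 and 131.8. Both K24R differences, 0.18 ± 0.19 and 0.10 ± 0.23, are smaller than the bead error, and the PMAIP1 probe lies at the detection limit. Of the 17 measured apoptosis targets, 3 were 2-fold higher and 0 lower, beside 1.45% and 0.686% of all genes, with a median of 0.44. Of the 15 members detected on both arrays, 2 were higher, beside 0.578% of all genes so detected.

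The targets with secreted or metabolic products held the largest difference of all. GDF15, a secreted stress cytokine of the TGF-beta family, read 4365.3 ± 79.7 on the K24R array, 9508.3 on the p53 wild-type array and 234.1 ± 6.06 on the vector array. It was 32.8-fold higher with K24R than with vector (log2 difference 5.04 ± 0.07) and 68.8-fold higher with p53 wild type. CYFIP2, a subunit of the complex that drives actin branching, read 724.0, 1702.1 and 245.2 on those arrays, 4.41-fold higher with K24R than with vector. IGFBP3, which binds insulin-like growth factors outside the cell, read 346.1, 360.6 and 162.2, 3.80-fold higher with K24R.

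PGF, placental growth factor, read 220.9 ± 12.1 with K24R, 194.6 with p53 wild type and 141.9 ± 9.84 with vector, a log2 difference of 1.39 ± 0.31. It was the dimmest member past 2-fold in this group. Members under 2-fold included the growth factor gene TGFA at 0.93 and the plexin PLXNB2 at 0.81. VDR, the vitamin D receptor, was lowest at -0.75. In this group 23 of 41 listed members were measured, 4 were 2-fold higher and 0 lower, beside 1.45% and 0.686% of all genes, and the median was 0.47.

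Set side by side, most p53 targets past 2-fold with K24R stood further from vector with p53 wild type than with K24R. The set leaves out targets past 2-fold with p53 wild type alone, such as BAX. The log2 difference from vector was 5.04 with K24R and 6.10 with p53 wild type for GDF15, 3.72 and 4.47 for TP53I3, 1.97 and 2.65 for CDKN1A, and 2.14 and 3.43 for CYFIP2. It was 1.58 and 2.90 for PLK3, 2.76 and 3.27 for SFN, 1.30 and 1.78 for TP53INP1, and 1.25 and 1.63 for BTG2. Closer pairs were 1.48 and 1.70 for SESN1, 1.62 and 1.73 for GADD45A, and 1.92 and 2.07 for IGFBP3. The K24R value was the larger for MDM2, at 1.64 and 1.56, and LRDD, at 1.28 and 1.21. It was also larger for PGF, at 1.39 and 1.17, and TNFRSF10D, at 1.29 and 0.89. These differences share the vector array, and whether K24R and p53 wild type differ could not be tested with 1 array each.

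Genes outside the p53 lists filled most of the 25 places furthest above vector, a set ordered by the bound where a gene had one. FGFR3, a receptor tyrosine kinase for fibroblast growth factors, read 870.6 ± 19.1 on the K24R array, 553.1 on the p53 wild-type array and 136.1 ± 5.4 on the vector array, where it was barely detected. It was 18.6-fold higher with K24R than with vector (log2 difference 4.22 ± 0.17). Under the alternatives that log2 difference lay between 2.07 and 4.82. HES6, a basic helix-loop-helix repressor related to the Notch effectors, read 2585.9 ± 90.8, 3538.3 and 640.7 ± 19.5, a log2 difference of 2.27 ± 0.07 for K24R over vector. SOX18, a transcription factor of vessel development, read 875.4 ± 41.4, 433.3 and 258.2 ± 14.7, a log2 difference of 2.32 ± 0.16. FGFR3 and SOX18 were brighter with K24R than with p53 wild type, and HES6 was dimmer.

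Of the rest of these genes detected on both arrays, RRAD, a Ras-related GTPase that curbs glucose uptake, read 491.9 with K24R, 876.4 with p53 wild type and 173.6 with vector, 5.20-fold higher with K24R than with vector. CTSH, a lysosomal cathepsin, read 497.9, 440.0 and 169.6, 5.56-fold higher. JAG2, a Notch ligand, read 429.1 ± 28.4, 280.0 and 176.9 ± 13.1, 4.18-fold higher. SLC6A10P, a pseudogene of the creatine transporter SLC6A8, read 1065.4, 626.4 and 203.4, 9.46-fold higher. Its probe could also take up SLC6A8 transcript, and SLC6A8 itself, named after its values were seen, read 177.5 with K24R and was not detected with vector at 123.8.

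The other genes of that set were not detected on the vector array. SUSD2, a membrane protein with a sushi domain, read 503.5 with K24R, 301.5 with p53 wild type and 99.9 with vector, at least 10.2-fold higher with K24R on the corrected scale. Its log2 difference of 4.30 lay between 2.33 and 6.06 under the alternatives. DPYSL4, a dihydropyrimidinase-like gene, read 482.3, 587.3 and 116.5, at least 9.64-fold higher. LGALS7 and LGALS7B, which encode galectin-7 and are nearly identical copies, read 443.2 and 459.9 with K24R and 108.7 and 104.1 with vector, at least 8.59-fold and 9.03-fold higher. Whether their probes read the copies apart is not given in the sources used here.

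H19, an imprinted long noncoding RNA, read 324.5 with K24R, 159.7 with p53 wild type and 100.2 with vector, at least 5.66-fold higher with K24R on the corrected scale. Its log2 difference was 3.44, and as low as 1.67 under the alternatives. UNC5A, a netrin receptor of the dependence receptor class, read 321.5, 134.0 and 89.6, at least 5.61-fold higher. PLA2G10, a secreted phospholipase, read 300.1, 146.4 and 105.8, and KLHL30, a kelch-like gene, 276.7, 151.1 and 98.9. In linear signal, p53 wild type lay nearer to vector than to K24R for these genes, and UNC5A was not detected with p53 wild type. On the corrected log2 scale the difference from vector was 3.55 with K24R and 1.03 with p53 wild type for UNC5A. It was 3.18 and 1.27 for PLA2G10. For H19, at 3.44 and 1.73, and KLHL30, at 3.12 and 1.53, p53 wild type lay about midway on that scale. CRYAB, a small heat shock protein, was brighter with p53 wild type than with K24R. It read 296.8 with K24R, 474.2 with p53 wild type and 108.2 with vector, at least 4.99-fold higher with K24R than with vector. VASN, which binds TGF-beta, LCN15, a lipocalin, D4S234E, and RAP1GAP, an activator of Rap GTP hydrolysis, were at least 5.32-fold, 5.15-fold, 4.42-fold and 4.25-fold higher with K24R than with vector.

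**Figure D3:**
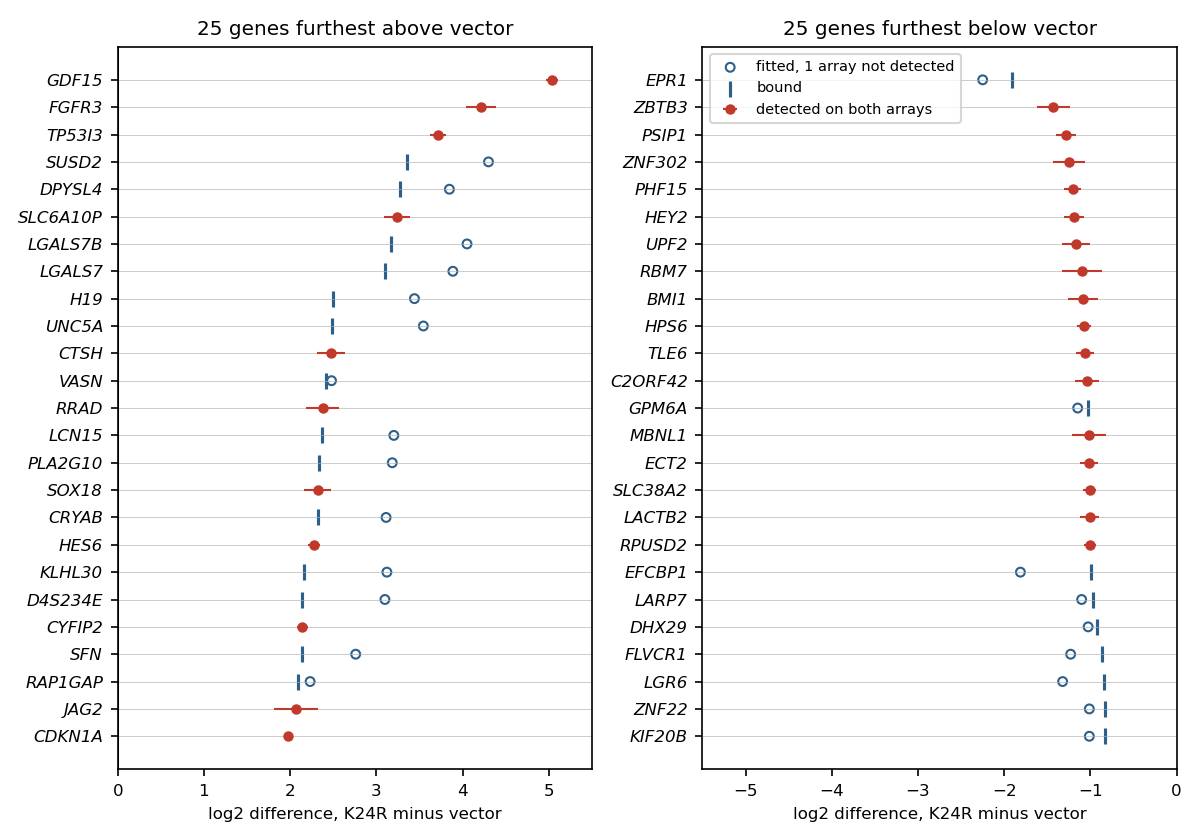
Log2 difference, K24R minus vector, of the 25 genes furthest above vector (left) and the 25 furthest below it (right), on axes of equal length. Red points were detected on both arrays and carry the bead error as a bar. Open circles are fitted differences of genes not detected on 1 array, with a vertical mark at the bound. The left panel reaches 5.04 for GDF15, while the right panel reaches a fitted -2.25 for EPR1, with its bound at -1.91.

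Genes lower with K24R than with vector were fewer, smaller in difference and mostly dim. EPR1, a transcript that overlaps the survivin gene BIRC5 on the other strand, was not detected with K24R at 121.9, and read 196.9 with p53 wild type and 243.6 with vector, at least 3.76-fold lower with K24R on the corrected scale. Its log2 difference was -2.25, and lay between -3.08 and -0.94 under the alternatives. BIRC5 itself differed by -0.38, and whether the EPR1 probe reads one strand alone is not given in the sources used here. ZBTB3, a zinc finger gene, read 151.2 ± 6.74 with K24R, 180.1 with p53 wild type and 252.6 ± 10.6 with vector, 2.70-fold lower with K24R than with vector. PSIP1, which tethers proteins to chromatin, read 155.7, 152.5 and 247.5, 2.43-fold lower.

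Brighter genes gave smaller differences with less bead error. SLC38A2, an amino acid transporter, read 733.6 ± 20.9 with K24R, 422.8 with p53 wild type and 1405.5 ± 48.5 with vector, 2.01-fold lower with K24R than with vector. RPUSD2, a pseudouridine synthase gene, read 444.4, 395.4 and 802.3, also 2.01-fold lower. HPS6, needed for lysosome-related organelles, read 273.3, 224.3 and 476.7, 2.11-fold lower, and PHF15, now called JADE2, read 253.6, 203.2 and 465.3, 2.30-fold lower. ECT2, the exchange factor that activates RhoA at cytokinesis, read 244.8 ± 8.0, 170.2 and 402.9 ± 15.3, 2.02-fold lower. For SLC38A2 and ECT2 the log2 difference from vector was -1.01 and -1.02 with K24R, and -1.94 and -1.90 with p53 wild type.

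BMI1, a Polycomb subunit, read 160.7 with K24R, 148.1 with p53 wild type and 239.3 with vector, 2.12-fold lower with K24R than with vector. UPF2, of nonsense-mediated decay, RBM7, of nuclear RNA decay, and MBNL1, a splicing regulator, had log2 differences of -1.17, -1.10 and -1.02. A second passing UPF2 probe, at the detection limit, differed by -0.03. HEY2, a Notch target repressor, read 163.5, 230.0 and 256.5, and TLE6, of the Groucho family, read 211.4, 373.0 and 344.0. With p53 wild type, HEY2 and TLE6 lay near or above vector, at -0.11 and 0.27, against -1.19 and -1.06 with K24R. ZNF302, C2ORF42 and LACTB2 had log2 differences of -1.25, -1.04 and -1.01. The 8 remaining of the 25 furthest below vector were not detected with K24R, GPM6A at least 2.04-fold lower, and EFCBP1, LARP7, DHX29, FLVCR1, LGR6, ZNF22 and KIF20B at least 1.77-fold to 1.99-fold lower.

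The listed cell cycle genes lay slightly below vector, and 0 of those measured reached 2-fold. Of 28 listed genes of mitosis and its entry, 26 were measured, 0 were 2-fold higher or lower, and 21 lay below 0 and 5 above, with a median log2 difference of -0.25. The kinase TTK read 173.6, 141.0 and 235.3 on the K24R, p53 wild-type and vector arrays. The topoisomerase TOP2A read 447.0, 246.5 and 685.3. The kinesins KIF23 and KIF11 differed by -0.67 and -0.66 with K24R, and TPX2, a spindle assembly factor, was the highest member at 0.60. For p53 wild type minus vector the median of these 26 genes was -0.89. Of 28 measured genes of the start of replication, 10 lay above 0 and 18 below, with a median of -0.14 for K24R and -0.29 for p53 wild type. The ribonucleotide reductase subunits RRM2 and RRM1 were at 0.68 and 0.44, the polymerase POLE at -0.65 and the licensing factor CDT1 at -0.58.

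**Figure D4:**
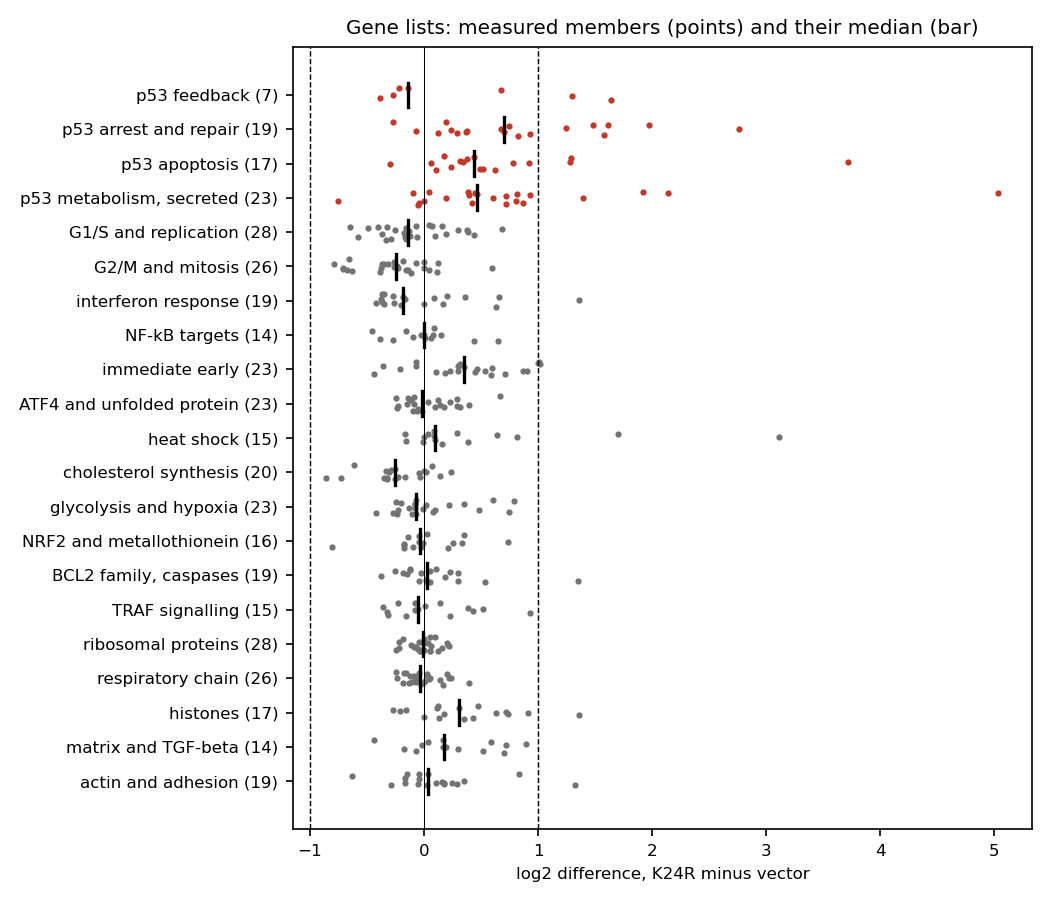
Log2 difference, K24R minus vector, of each measured member (points) of 21 gene lists, with the list median as a black bar, the number measured in brackets and dashed lines at 2-fold. GDF15 and TP53I3, p53 targets (red), lie furthest to the right, followed by CRYAB of the heat shock list. Ribosomal protein and respiratory chain genes stay between the dashed lines and near 0.

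Immediate early genes, which respond within minutes to growth factors and stress, had a median above 0. Of 26 listed, 23 were measured, 3 were 2-fold higher and 0 lower, beside 1.45% and 0.686% of all genes, 18 lay above 0, and the median was 0.36. ATF3, a stress-induced transcription factor, read 710.3 with K24R, 1189.3 with p53 wild type and 410.7 with vector. JUN and FOS, which together form the factor AP-1, read 1239.6 and 230.1 with K24R, 1413.1 and 217.4 with p53 wild type, and 695.4 and 162.8 with vector. All 3 sat at the threshold itself, with log2 differences of 1.01 ± 0.10, 1.0 ± 0.07 and 1.01 ± 0.10 for ATF3, JUN and FOS. EGR1, a zinc finger factor of the same class, was at 0.90.

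Histone genes had a median of 0.31 over 17 measured members. Of these, 1 was 2-fold higher and 0 lower, beside 1.45% and 0.686% of all genes. HIST2H2AA3 read 1229.5 with K24R, 1836.1 with p53 wild type and 559.4 with vector, 2.57-fold higher with K24R than with vector. A second passing probe of HIST2H2AA3 read 880.6, 2107.2 and 704.4 on those arrays, a log2 difference of 0.42 ± 0.16, so the call rests on 1 probe. HIST1H2BG was at 0.91. The p53 wild-type median was 0.89. Histone genes are near-identical copies, so a probe may read several. Among 15 measured heat shock genes 2 were 2-fold higher, CRYAB and HSPA6, and 0 lower, beside the same shares of all genes. Both were undetected with vector. With the bound only CRYAB stayed past 2-fold, beside 0.849% of all genes. The chaperone genes HSPA1A and HSPA1B, also near-identical, were at 0.64 and 0.81.

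Interferon response genes lay on both sides of vector. ISG15, a ubiquitin-like modifier, read 5539.4 ± 204 with K24R, 9926.3 with p53 wild type and 2298.4 ± 86.9 with vector, 2.57-fold higher with K24R than with vector. It was the 1 member of 19 measured past 2-fold, beside 1.45% of all genes higher and 0.686% lower. The median was -0.18, with IFIT1 and HERC5, both interferon-induced, at -0.37. Sterol genes lay lower, with 15 of 20 measured members below 0, 0 past 2-fold and a median of -0.25.

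The remaining lists centred near 0. The 14 measured NF-kB targets had a median of 0.00 and 0 members past 2-fold, with the inhibitor of apoptosis BIRC3 at 0.44 and the chemokine IL8 at -0.46. The 15 measured genes of TRAF signalling had a median of -0.05 and 0 members past 2-fold, and TRAF3IP2, an adaptor of interleukin signalling, was highest at 0.93. The 19 measured BCL2 family and caspase genes had a median of 0.03. BIK, a BCL2 antagonist, was the 1 member past 2-fold, beside 1.45% of all genes higher and 0.686% lower. It was not detected with vector and had a bound of 1.35-fold. The 23 genes of the ATF4 and unfolded protein response had a median of -0.02, those of glycolysis and hypoxia -0.07, those of NRF2 and the metallothioneins -0.03, and in these lists 0 members passed 2-fold.

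Structural genes mostly lay close to vector. Extracellular matrix and TGF-beta genes had 14 of 34 members measured, a median of 0.18 and 0 past 2-fold, with the smooth muscle actin ACTA2 highest at 1441.8 on the K24R array, 3467.2 on the p53 wild-type array and 848.3 on the vector array. Of 19 measured actin and adhesion genes, 1 was 2-fold higher and 0 lower, beside 1.45% and 0.686% of all genes. That member, RHOB, a small GTPase induced by stress, was 2.51-fold higher with K24R than with vector. It read 359.9 with K24R, 370.2 with p53 wild type and 204.0 with vector. The 28 ribosomal protein genes ranged from -0.25 to 0.22 with a median of -0.01, and the 26 respiratory chain genes had a median of -0.03 with 0 past 2-fold.

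Probes of the same gene mostly pointed one way. Of 2386 genes with several passing probes, those with a date for a name left out, 56 had a probe past 2-fold, and in 8 of those the probes differed in sign, CDK5RAP2, LAMP3, LARP7, NSF, RBBP4, RRAGB, SMPD1 and UBN1. In 0 genes were probes past 2-fold in both directions. The count of genes past 2-fold depends on how background is treated: with signals not corrected for background it was 38 higher and 1 lower, of which 7 were p53 targets. In the authors' own processed values it was 33 higher and 0 lower, 6 of them p53 targets.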

How the data were processed

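Total RNA of the 3 H1299 samples was hybridised to Illumina bead arrays, labelled by the standard Illumina procedure per the labels' protocols. Per the file headers, the deposited human table gives for each probe and array a mean bead signal in linear intensity, its bead standard error (in the same signal units), a bead number and a detection p-value. The authors' deposited series matrix holds these intensities averaged over a gene's probes and multiplied by 1 constant per array (1.06 for K24R, 1.01 for p53 wild type, 1.02 for vector, found by comparing the tables), with column medians of 123.5, 118.5 and 117.5. The basis of the constants is not given in the sources used here, and the values are linear and not centred. The genome build and probe positions are not given in the sources used here.

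All 3 human arrays were background-corrected with the control moments inferred from the detection p-values, quantile-normalized and taken to log2 with neqc (limma 3.58.1, R 4.3.3, offset 16). Background correction widens the differences of dim genes relative to the deposited signals, and a larger offset narrows them. Bead errors were carried to the log2 scale through each array's own mapping of signal to log2. Of 47323 probes, 15140 had a detection p-value under 0.01 on the K24R or vector array. A gene counted as past the threshold at an absolute log2 difference of 1. Spreadsheet dates stood in place of the names of 54 probes, which were not named. Some older gene names were matched to the lists by hand. The precision is limited by the number of arrays.

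The genes named were a fixed set of p53 genes, the 25 furthest above and the 25 furthest below vector (by the bound where there was one), every p53 target past 2-fold, up to 4 members of each other list, and the genes whose probes disagreed in sign. The members and lists were chosen with earlier results of these data known, and the p53 lists hold textbook targets. The steps were tested on simulated data, with known changes set only in probes well above the detection limit. Recovery of changes in dim genes, and the bounds, were not tested there. Alternatives covered background, offset, scaling, detection filter and choice of probe. Some genes of the lists are not reported here.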

Additional observations from a re-analysis of the deposited data

How the results depend on the processing

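With 1 array a group, no setting gives an error between cultures, and the number of arrays limits every value. Counts of genes past 2-fold moved with the settings of the background step. Genes higher with K24R than with vector numbered 177, against 38 without background correction, 67 with an offset of 50, 601 with an offset of 1, 33 in the authors' matrix, 60 when detection on both arrays was required, and 104 with undetected arrays at their bound, an alternative chosen after seeing the data. Lower genes numbered 84, against 1, 4, 429, 0, 17 and 20 under the same settings, and 47 with plain normexp. The 15 p53 targets past 2-fold became 7 without background correction, 8 with an offset of 50 and 6 in the authors' matrix, and lay between 10 and 19 under the other settings. The median over the p53 targets was 0.30 to 0.54 under the alternatives, against 0.48. Of the 43 named genes that were 2-fold higher, all 43 stayed above 0 under every setting that gave a value and 26 stayed past 2-fold. Of the 25 named lower genes, all 25 stayed below 0 and 0 stayed past 2-fold throughout. These counts leave out the setting with undetected arrays at their bound. The genes were chosen on the same arrays that every setting reprocesses, so kept signs were likely from the start and say nothing of other cultures. The median of all genes was 0.03 in the authors' matrix, against -0.01 as reported. The causes of these shifts were not tested. No paired analysis was possible because each group is 1 array, and no array could be left out.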

Other observations

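The genes in this paragraph were chosen after their values were seen, and are given as values with no test. The probes of 3 copies of the U3 small nucleolar RNA, which guides processing of ribosomal RNA, were all near 2-fold higher with K24R than with vector. SNORD3A read 474.9 with K24R, 572.8 with p53 wild type and 288.4 with vector. SNORD3C read 256.4, 290.5 and 176.6 on the same arrays, and SNORD3D read 544.3, 684.7 and 313.6. The log2 differences, K24R minus vector, were 1.03 ± 0.12, 1.0 ± 0.13 and 1.11 ± 0.07 (bead error). The copies are near-identical, so the 3 probes are not separate evidence. A second H2A histone gene, HIST2H2AA4, read 1321.1 with K24R, 2066.7 with p53 wild type and 732.3 with vector, a log2 difference of 1.01 ± 0.12, beside its near copy HIST2H2AA3 at 1.36.

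A few genes with products known from the epidermis or hair, also chosen after their values were seen, are given next as values. They were taken from the higher genes, and other members of these families were not counted. No share of such genes can therefore be set beside the 0.849% of all genes higher with the bound. The keratin gene KRT17 was not detected on either array, at 111.6 with K24R and 99.3 with vector. The folds are on the background-corrected scale, with the undetected vector array at its lowest detected value. LCE1C, a late cornified envelope gene, read 190.4 with K24R, 193.6 with p53 wild type and 100 with vector, at least 2.36-fold higher with K24R. LCE1B, of the same family, read 179.2, 236.6 and 107.5, at least 2.09-fold higher. KRTAP2-1, a keratin-associated protein gene of hair, read 184.5, 203.7 and 118.4, at least 2.22-fold higher. Members of such families share sequence, and the probes' positions are not given in the sources used here.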
